A study of Saccharomyces cerevisiae with 3 samples.

Results

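The nuclear genes of the yeast respiratory chain and ATP synthase were taken by gene symbol, as every probe set of the array whose platform symbol is one of 37 chosen names. All 37 genes were found, each with 1 probe set, among 5449 named Saccharomyces cerevisiae genes with 5498 probe sets, out of 10762 probe sets that are not array controls. The series holds 3 expression arrays and each group is 1 array. The baseline array was 100% yeast background with 0% spike, the second was 99% baseline with 1% spike, and the third 90% baseline with 10% spike. What the spike contained is not named in the sources used here. All groups share the same background, total RNA of strain W303, mating type MAT-alpha, with the cdc15-2 mutation, grown at 23 °C in a fermentor on minimal medium and taken 340 minutes after release from the restrictive temperature. Beyond this release from the restrictive temperature, which all groups share, no treatment was applied. Having 1 mutant strain at 1 time limits what the levels stand for.

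Respiring yeast passes electrons from NADH and succinate to ubiquinone, then through complex III, cytochrome c and complex IV to oxygen. Baker's yeast has no proton-pumping complex I and uses simple NADH dehydrogenases in its place. The proton gradient made by complexes III and IV drives the ATP synthase, a rotary enzyme with a catalytic F1 head, a peripheral stalk and a membrane sector, Fo. Genes of the chain are induced by oxygen, haem and non-fermentable carbon sources, and a few subunits have a hypoxic isoform made when oxygen is scarce. Further subunits of complexes III and IV and of Fo are encoded in mitochondrial DNA, and 0 of the 7 such genes listed had a probe set with that name here. Some nuclear genes of Fo, such as TIM11 and ATP19, lay outside the 37 names; they were at 13.07 and 12.98 in the baseline array.

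Values are log2 expression levels, 1 per probe set and array, made by the authors with RMA (robust multi-array average). Without replicates no difference has an error or a test, and precision is limited by having 1 array per group. Differences are given in log2 units beside those of the 5498 S. cerevisiae probe sets. Because RMA gives the arrays nearly the same distribution, a shift common to all genes could not be seen. Levels of different genes come from probes of different binding strength, so an order of levels is an order of probe-set signals and not of transcript amounts.

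All 37 genes were bright. In the baseline array their levels ran from 11.84 for SDH3 to 14.20 for ATP1, with a median of 12.57, where the median of all S. cerevisiae probe sets was 10.81. Every gene lay above that median, and 34 of 37 lay above the upper quartile of 11.97. The exceptions were SDH3, COX5B and ATP17. In the 10% array 35 of 37 lay above the upper quartile. For comparison, the 11 TCA cycle genes measured had a median of 13.00 in the baseline array. A list of 55 mitochondrial ribosomal protein genes had one of 12.60. It was taken by name, as MRP, MRPL or MRPS with a number, and leaves out genes named otherwise. All of both lists also lay above the S. cerevisiae median. High levels were thus shared by these mitochondrial lists, which were added after the levels of the 37 genes had been seen.

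**Figure D1:**
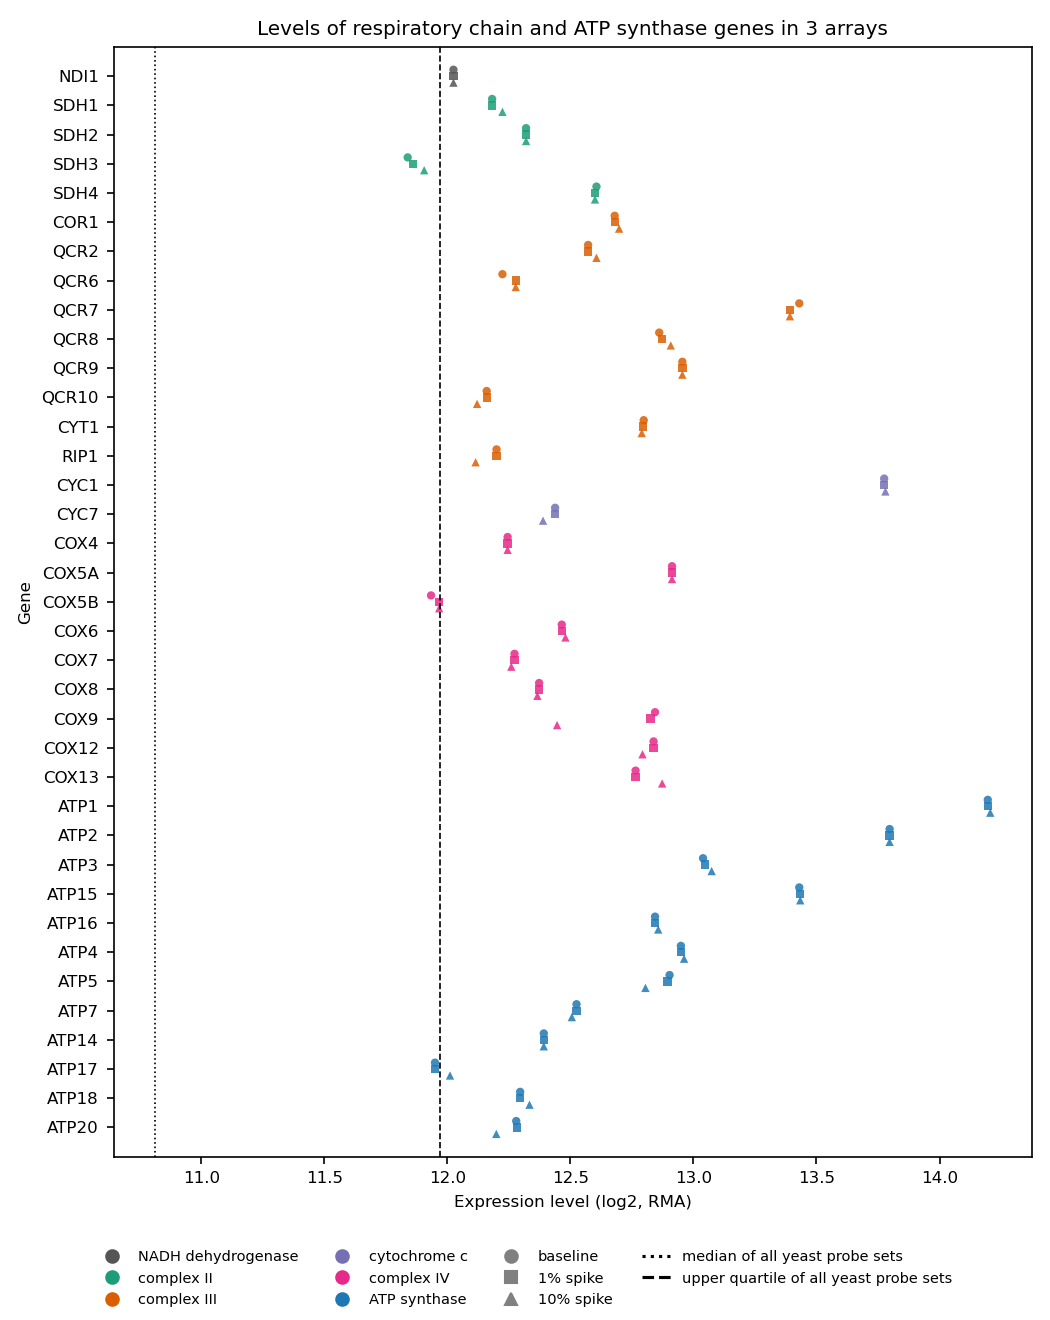
Log2 expression level of each of the 37 genes (rows, coloured by complex) in the baseline, 1% spike and 10% spike arrays (circle, square, triangle; 1 array each). The dotted and dashed lines are the median (10.81) and the upper quartile (11.97) of the S. cerevisiae probe sets in the baseline array; every gene lies right of the dotted line, and the 3 symbols of a gene nearly coincide except for COX9.

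Electrons enter the chain through NDI1 and complex II. NDI1, the NADH dehydrogenase facing the mitochondrial matrix, was at 12.02 in the baseline array and had the identical value in both spiked arrays. SDH1, the flavoprotein subunit of succinate dehydrogenase, was at 12.18 in the baseline and 1% arrays and 12.22 in the 10% array. SDH2, the iron-sulfur subunit, was at 12.32 in all 3 arrays. The membrane anchor subunits lay at either end of the complex. SDH3 was at 11.84, 11.86 and 11.91 in the baseline, 1% and 10% arrays, and SDH4 was at 12.61, 12.60 and 12.60. The median difference of the 4 subunits in the 10% array was 0.021, and SDH3 had the highest at 0.067.

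Complex III takes electrons from ubiquinol to cytochrome c. The levels of its 9 subunits measured here ran from 12.16 to 13.43 in the baseline array, with a median of 12.68. QCR7, a small subunit, was the brightest at 13.43, 13.39 and 13.39 in the baseline, 1% and 10% arrays. The other small subunits were QCR9 at 12.96 in all 3 arrays, QCR8 at 12.86, 12.87 and 12.91, QCR6 at 12.22, 12.28 and 12.28, and QCR10 at 12.16, 12.16 and 12.12. QCR6 had the highest 1% over baseline difference of all 37 genes, 0.054, and QCR7 the lowest, -0.038; neither moved further in the 10% array. The core subunits COR1 and QCR2 stood at 12.68 and 12.57 in the baseline array and differed by 0.018 and 0.034 in the 10% array. CYT1, cytochrome c1, was at 12.80 in the baseline array and differed by -0.008. RIP1, the Rieske iron-sulfur protein, was at 12.20 in the baseline and 1% arrays and 12.12 in the 10% array, a difference of -0.085 and the lowest of the complex. Differences in the 10% array split evenly, with 4 subunits higher, 4 lower and 1 identical.

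Cytochrome c, the soluble carrier between complexes III and IV, has an aerobic form, CYC1, and a hypoxic form, CYC7. CYC1 was at 13.77 in the baseline and 1% arrays and 13.78 in the 10% array. CYC7 was at 12.44 in the baseline and 1% arrays and 12.39 in the 10% array. The probe set of the aerobic form was thus the brighter in every array, by 1.34 in the baseline and 1% arrays and by 1.39 in the 10% array. CYC7 was itself bright, above 82.6% of S. cerevisiae probe sets in the baseline array.

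Complex IV reduces oxygen to water, and 9 of its nuclear genes were measured, with a median of 12.46 in the baseline array. Subunit 5 also comes in an aerobic form, COX5A, and a hypoxic form, COX5B. COX5A was the brightest gene of the complex at 12.91 in all 3 arrays. COX5B was the dimmest, at 11.93 in the baseline array and 11.97 in both spiked arrays. The gap between the forms was 0.98 in the baseline array, against 0.95 in both spiked arrays. Over the 3 arrays the gap moved by -0.033 at most for subunit 5 and by 0.054 for cytochrome c; probe binding cancels in that change, but not in the gap itself.

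Of the other subunits of complex IV, COX4 was at 12.24 in all 3 arrays and COX6 at 12.46, 12.46 and 12.48. The small subunits COX7 and COX8 stood at 12.27 and 12.37 in the baseline array and differed by -0.013 and -0.007 in the 10% array. COX12, a subunit facing the intermembrane space, was at 12.84 in the baseline and 1% arrays and 12.79 in the 10% array. COX13 was at 12.76 in the baseline and 1% arrays and 12.87 in the 10% array, a difference of 0.11. COX9 went the other way, with 12.84, 12.82 and 12.45 in the baseline, 1% and 10% arrays, differences of -0.019 and -0.40. On the linear scale the 10% value of COX9 was 0.759 times the baseline value.

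The ATP synthase had 12 genes, 5 of the F1 head and 7 of the peripheral stalk and membrane sector. The catalytic head held the brightest genes. ATP1, the alpha subunit, was at 14.20, 14.20 and 14.21, above 98.0% of S. cerevisiae probe sets in the baseline array. ATP2, the catalytic beta subunit, was at 13.80 in all 3 arrays. The central stalk subunits of the head were ATP15 (epsilon) at 13.43 in the baseline array, ATP3 (gamma) at 13.04 and ATP16 (delta) at 12.84, with differences in the 10% array of 0.004, 0.035 and 0.013. None of the 5 was lower in either spiked array, where 14.5% of S. cerevisiae probe sets were lower in the 1% array and 27.2% in the 10% array. This holds only for the values as deposited. Centring on the S. cerevisiae median took the median 10% difference of all S. cerevisiae probe sets from 0 to -0.0265, and shifts these genes equally.

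The stalk and membrane genes were dimmer, with a median of 12.39 against 13.43 for the F1 genes in the baseline array, although the ranges overlapped. ATP4, subunit b of the stalk, was the brightest of them at 12.95, 12.95 and 12.96. ATP5, the subunit that links stalk and head, was at 12.90 in the baseline and 1% arrays and 12.80 in the 10% array, a difference of -0.098. ATP7, subunit d, was at 12.53, 12.53 and 12.51, and ATP14, subunit h, at 12.39 in all 3 arrays. Of the membrane subunits, ATP17 was at 11.95, 11.95 and 12.01, ATP18 at 12.30, 12.30 and 12.33, and ATP20, which takes part in dimer formation, at 12.28, 12.28 and 12.20. In the 10% array 3 of these 7 genes were higher, 3 lower and 1 identical.

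Over all 37 genes, the 10% array differed little from the baseline array. The count at 2-fold was 0 in both directions, where 0.0182% of S. cerevisiae probe sets were higher and 0.0364% lower by as much, so a count of 0 is what the background gives. At 0.1 or more, 1 gene was higher (COX13) and 1 lower (COX9), against 9.49% and 8.09% of S. cerevisiae probe sets of all levels, dim ones included. This split depended on the scaling. After quantile normalization over again, and with arrays centred on the S. cerevisiae median, 0 were higher and 4 lower (COX9, ATP5, RIP1 and ATP20). With a loess trend removed 0 were higher and 3 lower (COX9, ATP5 and RIP1). In that order, 9.42%, 11.15% and 8.55% of all S. cerevisiae probe sets were lower by as much, near the share of the genes. The shares higher were 6.37%, 5.84% and 7.49%. COX13 was under 0.1 in all 3 of these settings. The median difference was 0 for the genes and 0 for all S. cerevisiae probe sets. In all, 17 genes were higher (45.9%), 13 lower (35.1%) and 7 identical to 3 decimals (18.9%). Of S. cerevisiae probe sets 45.1% were higher, 27.2% lower and 27.7% identical. These signs are of the deposited values. After renormalization, centring and loess removal the median of the genes was -0.021, -0.027 and -0.016, so more were then lower than higher. By complex the medians ran from -0.022 for cytochrome c to 0.021 for complex II, with 0 for complexes III and IV and 0.007 for the ATP synthase. The signs of these medians also depended on the scaling. After renormalization, centring and loess removal, in that order, complex II was at -0.0043, -0.0055 and 0.0036. The ATP synthase was at -0.0177, -0.0195 and -0.0084.

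The 1% array was closer still. No gene reached 2-fold, as for all S. cerevisiae probe sets (0.0% in each direction), and 0 reached 0.1, where 0.746% were higher and 1.24% lower by as much. Differences ran from -0.038 to 0.054, and 25 of 37 genes were identical to the baseline array, where 62.9% of S. cerevisiae probe sets were. In 10% over 1%, which shares an array with each of the other comparisons, 0 genes reached 2-fold (background 0.0182% higher and 0.0364% lower). At 0.1 COX13 was higher by 0.11 and COX9 at -0.38, with backgrounds of 6.78% higher and 6.55% lower. COX13 was again under 0.1 in the 3 other settings, where 0 genes were higher and 2 to 4 lower. In those settings 4.42% to 5.75% of S. cerevisiae probe sets were higher and 6.8% to 8.6% lower by 0.1 or more.

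The identical values fell into patterns. NDI1, SDH2, QCR9, COX4, COX5A, ATP2 and ATP14, 7 genes in all, had the same value in all 3 arrays, or 18.9% of the genes beside 25.9% of S. cerevisiae probe sets. For 18 genes the baseline and 1% arrays were equal and the 10% array differed (48.6% beside 36.9%). For SDH4, QCR6, QCR7, COX5B and ATP15 the spiked arrays were equal and the baseline array differed (13.5% beside 8.7%). The last 7 genes, COX9 among them, had 3 different values (18.9% beside 26.7%). Median polish, the last step of RMA, can return equal values when few arrays are summarized.

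**Figure D2:**
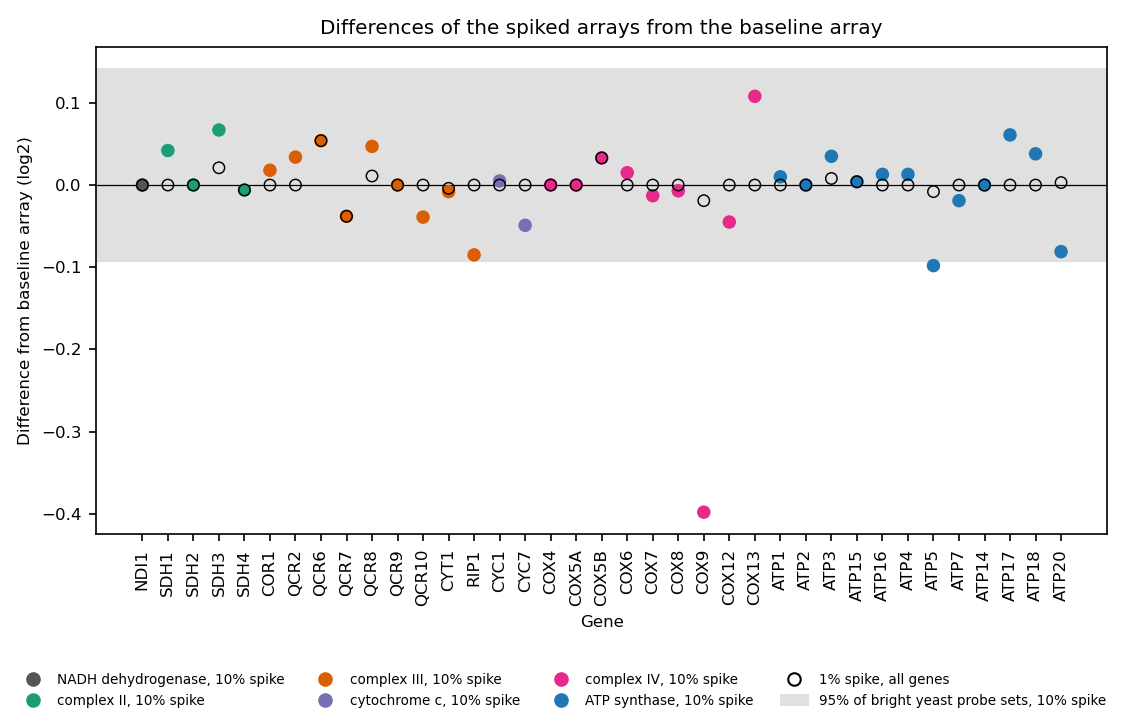
Log2 difference from the baseline array of the 37 genes, for the 10% spike array (filled, by complex) and the 1% spike array (open circles). The grey band, -0.092 to 0.14, holds 95% of the 1505 S. cerevisiae probe sets as bright as these genes in the 10% array; COX9 at -0.40 and ATP5 at -0.098 lie below it.

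The genes were also set beside the 1505 S. cerevisiae probe sets whose mean level was at least that of SDH3, the dimmest of them. Differences in the 10% array had a standard deviation of 0.056 over these 1505 probe sets and of 0.101 over all 5498. Of the 1505, 825 were higher and 308 lower than in the baseline array. By 0.1 or more 105 of the 1505 were higher and 31 lower, beside 1 and 1 of the 37 genes. The median over the 1505 was 0.006, and 95% differed by -0.092 to 0.14 in the 10% array, and 35 of the 37 genes lay within that band. COX9 had the lowest difference of the 1505. The next was RPL4B, a ribosomal protein gene, at -0.39, so the order of the 2 is not resolved. Only PMP2, a small regulator of the plasma membrane proton pump, was also lower by 0.3 or more, at -0.31, and its 1% over baseline difference was -0.27. These genes were named after their values were seen. COX13 was exceeded by 81 of the 1505 and ATP5 was above 32 of them. The standard deviation of the differences over complex IV was 0.14, and 0.045 without COX9, close to the 0.046 of complex III and of the ATP synthase.

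COX9 is also among the shortest genes of the chain, at 180 bases from start to stop codon. The other members under 200 bases were ATP18 with 180, COX7 with 183 and ATP15 with 189, and their differences in the 10% array were 0.038, -0.013 and 0.004. A 10% value at least 0.3 under the baseline value was found for 1 of the 37 genes, COX9, and for 1.55% of S. cerevisiae probe sets. Over probe sets of all levels, dim ones included, the share was 11% of the 118 under 200 bases, COX9 among them. It was 4.8% of the 125 with 200 to 300 bases and 1.26% of the 5255 with 300 or more. Of the 1505 probe sets as bright as these genes, of any length, it was 0.199%. Of the 24 short ones as bright as these genes, 2 were lower by as much, COX9 and PMP2. Across the 37 genes, the correlation of log2 length with the 10% difference was r = 0.27 (Spearman's rho 0.20) and r = 0.09 (rho 0.13) without COX9; these describe genes of the same arrays, which are not replicates. The part of length in the value of COX9 was not tested.

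**Figure D3:**
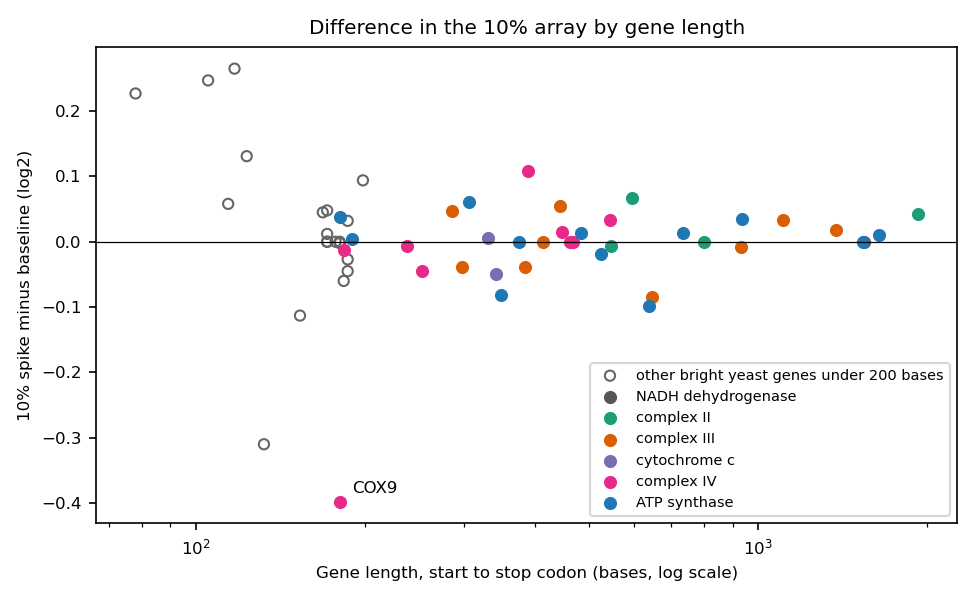
Log2 difference of the 10% spike array from the baseline array against gene length in bases (log scale) for the 37 genes (filled, by complex) and for the other S. cerevisiae probe sets under 200 bases of the same brightness (open). COX9 at -0.40 lies below ATP18, COX7 and ATP15, which have nearly the same length and lie between -0.013 and 0.038.

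The aerobic and hypoxic forms of the chain were set beside pairs outside it and beside paralogs of its subunits. HYP2, the aerobic form of translation factor eIF5A, was at 14.15 in the baseline array and its hypoxic partner ANB1 at 10.35, a gap of 3.81. PET9, the main ADP/ATP carrier of the inner membrane, was at 13.83 and the hypoxic carrier AAC3 at 9.08, a gap of 4.75. HMG1 and HMG2, the sterol pathway reductases, were at 12.19 and 11.48, a gap of 0.71. The gaps of COX5A over COX5B (0.98) and CYC1 over CYC7 (1.34) thus lay between these values. All carry differences in probe binding, and whether probes of one form also bind the other was not tested.

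The paralog pairs that follow, added after values were seen, had wider gaps than COX5A and COX5B or CYC1 and CYC7. SDH3 and its paralog SHH3 were at 11.84 and 8.08, and SDH4 and SHH4 at 12.61 and 9.68 in the baseline array. NDE1 and NDE2, NADH dehydrogenases facing the intermembrane space, were at 13.18 and 8.36. In each of the 8 pairs drawn in the plot of isoform pairs, the order was the same in all 3 arrays. Change in a gap from the baseline to the 10% array ran from -0.089 for SDH3 and SHH3 to 0.075 for PET9 and AAC3. The hypoxic forms COX5B, CYC7, ANB1, AAC3 and HMG2 differed by 0.033, -0.049, -0.034, -0.076 and 0 in the 10% array. Genes without a drawn partner were at 11.24 for the haem synthesis gene HEM13, 13.09 for the fatty acid desaturase gene OLE1, 6.44 and 10.28 for the cell wall genes DAN1 and TIR1, and 10.02 for AAC1, a further ADP/ATP carrier, in the baseline array.

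**Figure D4:**
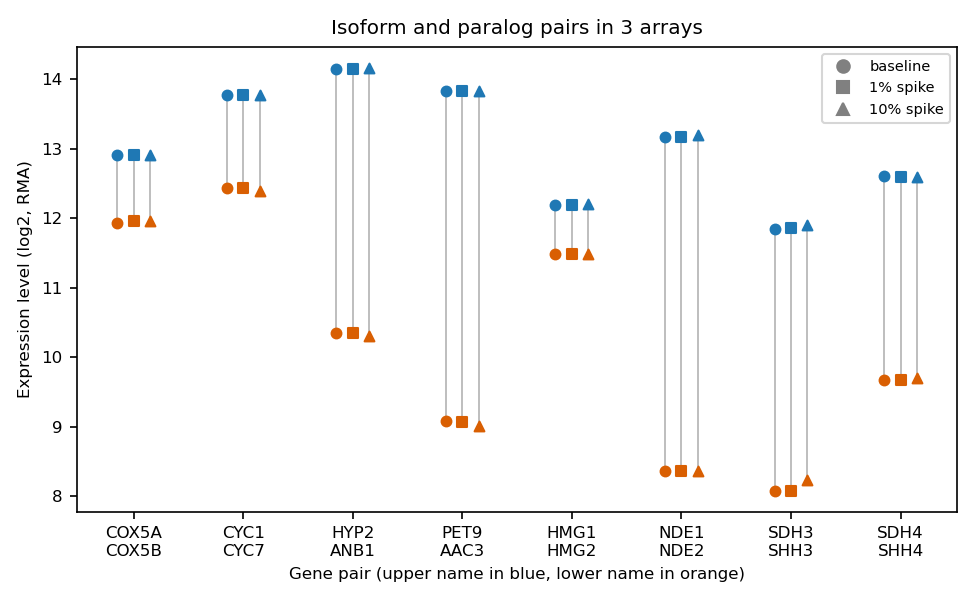
Log2 expression levels of 8 isoform or paralog pairs in the baseline, 1% spike and 10% spike arrays (circle, square, triangle; 1 array each), with the upper-named gene in blue and the lower-named in orange. Blue lies above orange in every pair and array, with gaps in the baseline array from 0.71 (HMG1 and HMG2) to 4.81 (NDE1 and NDE2).

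Regulators of the chain were measured by 9 genes. HAP4, the activating subunit of the HAP complex that switches on respiratory genes, was at 12.34 in all 3 arrays. The DNA-binding subunits HAP2, HAP3 and HAP5 were at 10.28, 9.56 and 10.82, and the haem-responsive activator HAP1 at 10.34, each with the identical value in all 3 arrays. The corepressor genes TUP1 and CYC8 were at 11.89 and 10.49 in the baseline array, with differences in the 10% array of 0 and 0.066. ROX1 and MOT3, repressors of hypoxic genes, were the 2 regulators past 0.1 in the 10% array, where 9.49% of S. cerevisiae probe sets were higher by as much. Other scalings were not applied to the regulators. ROX1 was at 11.48, 11.48 and 11.62, a difference of 0.14, and MOT3 at 10.08, 10.11 and 10.27, a difference of 0.19.

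Other genes of the pathway also differed little between the arrays. Of 91 genes measured in the lists of regulators, assembly factors, ubiquinone synthesis, other dehydrogenases, accessory subunits and hypoxic partners, 0 reached 2-fold in the 10% array, and 6 were higher and 3 lower by 0.1 or more; the background shares were 9.49% and 8.09%. The 23 complex IV assembly factors had a median difference of 0.023, with COA2 the farthest at -0.14. Of the 11 ATP synthase assembly factors FMC1 was farthest, at -0.13, and the median was 0. Complex II assembly factors, 4 in all, were each higher, by 0.028 to 0.093, with SDH6 the farthest. Of all S. cerevisiae probe sets 45.1% were higher in the 10% array, and other scalings were not applied to this list. Of the 8 factors for complex III and cytochrome c, CYT2, which attaches haem to cytochrome c1, was farthest at 0.061. Of the 10 ubiquinone genes COQ3 was farthest at -0.10, of the 6 other dehydrogenases DLD1 at 0.030, and of 9 paralogs and accessory subunits SHH3 at 0.16.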

How the data were processed

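The deposited table holds log2 levels of each probe set on the 3 arrays, made with RMA per the submitters' processing notes. The sources used here give neither its version nor the arrays that were normalized together. That the scale is log2 rests on the range of the values and the usual output of RMA. Values were used as deposited and differences were rounded to 3 decimals. Array controls were left out. Symbols came from the platform annotation and were matched by gene identifier to the RefSeq table of assembly R64, which also gave gene lengths from start to stop codon, introns included, in place of the planned coding lengths; 37 of 37 members had one, and 36 were multiples of 3. Each group is 1 array, so no test was run; genes past 2-fold or 0.1 (log2) were counted. The genes named were every member and, in each further list, the regulators, the hypoxic partners and the member with the largest difference; the paralogs SHH3, SHH4, NDE1 and NDE2, TIM11, ATP19, RPL4B and PMP2 were added outside that rule after values were seen. Members and lists were chosen with earlier results of these data known. The counting step was tested on simulated data. Alternatives were renormalization, centring, removal of a loess trend, a 1.5-fold threshold and filters on probe sets. Python 3.11.15, pandas 2.3.3 and statsmodels 0.14.6 were used.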

Additional observations from a re-analysis of the deposited data

How the results depend on the processing

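No paired analysis was possible because each group is 1 array. With no replicates, a value was held to have moved when it changed by more than the standard deviation over the S. cerevisiae probe sets, 0.101 in the 10% over baseline comparison, and a count when it changed by more than 1.5 times. The limit of 0.101 was wide beside the genes' median absolute difference in 10% over baseline, 0.019. A change of sign, such as the complex II median going from 0.021 to -0.0055 after centring, thus counted as stayed. The filters on unique probe sets and on level, with 9 values each, dropped none of the genes and could move nothing. Centring could not change the gap of an isoform pair. By that loose measure 98 of 102 alternative values stayed and 4 moved. Those 4 were counts of genes at 0.1 or more: in 10% over baseline and in 10% over 1% the count went from 2 to 4 after quantile normalization over again and from 2 to 4 with arrays centred on the S. cerevisiae median, all 4 lower (COX9, ATP5, RIP1 and ATP20) where 1 had been higher and 1 lower. With the loess trend removed the 10% over baseline count was 3, all lower. Of all S. cerevisiae probe sets 9.42%, 11.15% and 8.55% were lower by 0.1 or more after renormalization, centring and loess removal. Those higher were 6.37%, 5.84% and 7.49%. In 10% over 1% the shares lower were 7.04% after renormalization and 8.6% after centring. The tilt to lower values was thus shared by all probe sets. Under renormalization, centring and loess removal, in that order, ATP5 was in 10% over baseline at -0.113, -0.125 and -0.114, RIP1 at -0.107, -0.112 and -0.103 and ATP20 at -0.108, -0.108 and -0.098. COX9 stayed the lowest in 10% over baseline, at -0.415, -0.424 and, with the loess trend removed, -0.415, whereas COX13 was under 0.1, at 0.090, 0.082 and 0.092. The median of the genes was -0.021, -0.027 and -0.016, with all S. cerevisiae probe sets at -0.013, -0.027 and -0.007.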
